A study of Mus musculus with 6 samples.

Results

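Fatty acid synthesis is described here through 10 genes, Scd1, Scd2, Fasn, Acaca, Acly, Elovl6, Srebf1, Dgat1, Dgat2 and Thrsp, taken by name from the 18749 gene rows of 6 aorta libraries. All 10 had a row and all 10 passed the filter on low counts, with no expected count below 147 in any library. The mice of both groups were Apoe-/-, lacking apolipoprotein E, and all were infused with angiotensin II (Ang II), a peptide that raises blood pressure and leads to aortic aneurysms in such mice, for 28 days. The groups differ in the bone marrow they received. The control group of 3 libraries (controls 1 to 3) received Apoe-/- bone marrow, and the other 3 libraries (Sept2C111A libraries 1 to 3) come from mice given Apoe-/-Sept2C111A marrow, which carries an altered septin-2. The alteration was thus brought in with blood-forming cells, while the recipients themselves were Apoe-/-. Which cells of the wall and of its surrounding fat came from the donor is not stated, and counts per gene do not separate donor from recipient RNA. The sources used here do not state the age or sex of the mice, how much marrow was replaced or which aortic segment was taken.

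De novo lipogenesis turns surplus carbohydrate into fat. Acly, ATP citrate lyase, releases acetyl-CoA from citrate, Acaca, acetyl-CoA carboxylase, makes malonyl-CoA from it, and Fasn, fatty acid synthase, builds palmitate. Elovl6 lengthens palmitate to stearate, the stearoyl-CoA desaturases Scd1 and Scd2 put in a double bond, and Dgat1 and Dgat2 complete triglycerides. Srebf1 encodes a transcription factor that switches on these enzymes, and Thrsp a small protein that promotes lipogenesis. Adipocytes and liver cells are rich in this pathway, and the aorta is sheathed in perivascular fat, white and brown. Scd2 is known more widely than Scd1 outside fat and liver.

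Sequence before the start site is shown for Acly, Thrsp, Elovl6 and Fasn, the 4 members with the smallest p in the group comparison. The sequences are the 250 bases before the RefSeq start site (GRCm38.p6, which is mm10), 5′ to 3′ on the strand of the gene, with matches to a CCAAT box (CCAAT) or a GC box (GGGCGG) on either strand in capitals. The windows are chr11:100528001-100528250 for Acly, chr7:97417551-97417800 for Thrsp and chr11:120824548-120824797 for Fasn, all on the minus strand, and chr3:129532136-129532385 for Elovl6 on the plus strand.
Fasn: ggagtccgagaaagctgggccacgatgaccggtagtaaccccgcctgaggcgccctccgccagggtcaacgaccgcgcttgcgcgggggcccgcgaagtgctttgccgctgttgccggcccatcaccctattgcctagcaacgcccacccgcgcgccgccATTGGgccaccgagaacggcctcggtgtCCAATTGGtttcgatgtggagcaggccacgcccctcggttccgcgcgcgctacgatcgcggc
Thrsp: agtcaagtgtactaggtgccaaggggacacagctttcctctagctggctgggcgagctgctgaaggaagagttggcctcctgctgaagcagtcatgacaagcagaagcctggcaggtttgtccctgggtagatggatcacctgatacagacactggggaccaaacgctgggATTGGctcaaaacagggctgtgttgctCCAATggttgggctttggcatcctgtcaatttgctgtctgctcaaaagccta
Acly: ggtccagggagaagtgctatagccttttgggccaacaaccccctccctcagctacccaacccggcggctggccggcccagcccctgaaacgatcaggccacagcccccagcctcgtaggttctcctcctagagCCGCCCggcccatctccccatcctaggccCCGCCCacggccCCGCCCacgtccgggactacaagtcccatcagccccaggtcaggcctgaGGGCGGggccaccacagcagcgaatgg
Elovl6: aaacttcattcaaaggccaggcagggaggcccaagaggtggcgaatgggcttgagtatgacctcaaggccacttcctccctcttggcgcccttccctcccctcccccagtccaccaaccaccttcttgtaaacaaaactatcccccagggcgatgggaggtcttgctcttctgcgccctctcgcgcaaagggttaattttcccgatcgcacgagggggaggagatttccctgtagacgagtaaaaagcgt

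Fasn had CCAAT matches starting at -90, -62 and -59 from the start site, the latter 2 overlapping on opposite strands. Thrsp had them at -79 and -52, while Acly had GC box matches at -117, -88, -76 and -27, and Elovl6 had neither. For Thrsp and Elovl6 the RefSeq start site differs from the gene start in GENCODE, another annotation. The GENCODE gene of Thrsp reaches to 97417730, so the CCAAT matches of Thrsp lie inside it. That of Elovl6 begins at 129532355, inside the Elovl6 window. Of 32851 mouse promoter windows of this length, 33.9% held a CCAAT box and 32.7% a GC box. The sterol regulatory element core TCACNCCAC (1.05% of all windows) and the E-box CACGTG (6.02%) were searched on both strands too and had 0 matches in the 8 windows listed for 6 members, which says only that these letters are not in these windows. The other member genes with a window were Acaca and Srebf1.

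The library totals ran from 17082719 to 20494928 expected counts, estimated reads per gene that may be fractional where a read fits several genes. Levels are CPM, the usual abbreviation for read counts scaled to a common library size, here with the TMM factors of edgeR, and are given as mean ± SD with n = 3 per group. Smooth muscle markers, 10 genes that define the wall, were present in every library, at summed levels of 16026 to 24019 CPM in 5 libraries and 6067 CPM in control 3. No gene of the 14466 tested passed edgeR's quasi-likelihood test at a Benjamini-Hochberg adjusted p under 0.05 (0% called), the smallest adjusted p being 0.316. At an unadjusted p under 0.05 there were 2170 genes (15%), and DESeq2 called 570 (3.87%) at an adjusted p under 0.05. The labels call the libraries separate samples, 3 per group, and nothing says more on their source, so p-values measure the spread between these samples.

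Acly, the first step, was measured at 301, 243 and 112 CPM in controls 1, 2 and 3. In Sept2C111A libraries 1, 2 and 3 it was at 749, 235 and 1128 CPM. Libraries 1 and 3 of the Sept2C111A group lay above all controls, library 2 lay just under control 2, and control 3 was lowest. Group means were 219 ± 96.6 and 704 ± 448 CPM. Relative to controls, Sept2C111A recipients had a log2 fold change (edgeR) of 1.69, with an SE of 0.63 and a 95% interval of 0.17 to 3.20. The gene (mm10, chromosome 11, 100476353 to 100528000) had the smallest p of the 10, an unadjusted edgeR p of 0.0341 and an adjusted p of 0.320.

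Acaca, whose product commits acetyl-CoA to fat, stood at 254, 190.4 and 50.1 CPM in controls 1 to 3 and at 486, 186 and 706 CPM in Sept2C111A libraries 1 to 3. The same libraries were thus high and low as for Acly, and the groups overlapped. Its log2 fold change was 1.48 (SE 0.70, edgeR adjusted p = 0.361). Acaca lies at chromosome 11, 84129672 to 84401651, and shares part of this span with Gm11437 on the opposite strand, whose reads cannot be told apart without a stated strand setting. Elovl6 likewise overlaps Gm35986.

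Fasn, the synthase itself (chromosome 11, 120805846 to 120824547), was at 862, 754 and 77.4 CPM in controls 1 to 3. It reached 2685 and 4259 CPM in Sept2C111A libraries 1 and 3, but 752 CPM in library 2. Library 2 therefore matched control 2, and control 3 stood apart at the low end, with the highest library 55.0-fold above it. The means were 565 ± 425 and 2566 ± 1756 CPM, a 4.54-fold difference of means and a log2 fold change of 2.18 (SE 0.99, 95% interval -0.20 to 4.57, edgeR adjusted p = 0.352).

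Elovl6, the elongase (chromosome 3, 129532355 to 129638495), was at 42.1, 28.2 and 7.27 CPM in controls 1 to 3 and 96.3, 30.0 and 172 CPM in Sept2C111A libraries 1 to 3. Control 3 was lowest and Sept2C111A library 3 highest. The log2 fold change was 1.94 (SE 0.80), with an unadjusted edgeR p of 0.0499 and an adjusted p of 0.333.

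Scd1, the main desaturase of fat (chromosome 19, 44394455 to 44407879), took the most counts of the 10 genes in 5 of the 6 libraries, and in Sept2C111A library 3 the most of all genes, 0.821% of the counts. Its levels were 4796, 2866 and 183 CPM in controls 1 to 3 and 7808, 2992 and 7801 CPM in Sept2C111A libraries 1 to 3. Sept2C111A library 2 lay between controls 2 and 1, and control 3 held 0.0639 times the level of control 2. The means were 2615 ± 2317 and 6200.3 ± 2778 CPM, with a log2 fold change of 1.25 (SE 1.05, 95% interval -1.28 to 3.77, edgeR adjusted p = 0.558). This value rested on single control libraries: it was 0.70 without control 3 and 2.02 without control 1.

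Scd2, its neighbour on chromosome 19 (44293674 to 44306864), had another pattern. It was at 236, 249 and 275 CPM in controls 1 to 3 and 352, 258 and 353 CPM in Sept2C111A libraries 1 to 3, so that control 3 was the highest control, and the highest library exceeded the lowest only 1.50-fold. Sept2C111A libraries 1 and 3 again lay above all controls and library 2 among them. The log2 fold change was 0.34 (SE 0.18, 95% interval -0.09 to 0.78, edgeR adjusted p = 0.385). Scd1 and Scd2 belong to a family with near-identical stretches: 4.56% of the 50-base words in Scd1 transcripts also occurred in a transcript of Scd2, Scd3 or Scd4, and 3.75% of those of Scd2 in another member of that family. Scd3 and Scd4 themselves were at 0.525 to 1.27 CPM and 1.43 to 3.47 CPM. Of the other members, Acaca and Elovl6 shared most, with 30.4% and 3.98% of their 50-base words also found in a transcript of another gene.

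Per kilobase of transcript, the ratio of Scd1 to Scd2 was 23.0, 13.0 and 0.753 in controls 1 to 3 and 25.0, 13.1 and 25.0 in Sept2C111A libraries 1 to 3. Control 3 was thus the library in which Scd2 exceeded Scd1. The groups did not differ in this ratio beyond their spread (exact two-sided permutation test, p = 0.2, and 0.2 after Benjamini-Hochberg adjustment over 3 ratios; the smallest p that 3 against 3 libraries allow is 0.1).

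Dgat2, an enzyme of triglyceride synthesis (chromosome 7, 99153658 to 99182719), was at 121, 130.5 and 7.47 CPM in controls 1 to 3 and 294, 116 and 325 CPM in Sept2C111A libraries 1 to 3. It followed Scd1: control 3 was far below the rest, Sept2C111A libraries 1 and 3 were highest, and library 2 lay just under controls 1 and 2. Its log2 fold change was 1.51 (SE 0.95, edgeR adjusted p = 0.449), or 0.96 without control 3.

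Dgat1, the other enzyme of that step (chromosome 15, 76502015 to 76511953), did not follow it. It was highest in control 1, at 102 CPM, against 39.0 and 28.7 CPM in controls 2 and 3 and 61.1, 46.1 and 67.6 CPM in Sept2C111A libraries 1 to 3. All Sept2C111A libraries lay within the range of the controls, and the log2 fold change was 0.04 (SE 0.48, 95% interval -1.11 to 1.19, edgeR adjusted p = 0.971). Its sign turned with the libraries used, from -0.27 without control 3 to 0.79 without control 1. The ratio of Dgat2 to Dgat1 per kilobase was 0.991, 2.79 and 0.217 in controls 1 to 3 and 4.02, 2.10 and 4.01 in Sept2C111A libraries 1 to 3, with overlapping groups (exact permutation p = 0.2).

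Srebf1, the transcription factor (chromosome 11, 60199089 to 60222581), varied less than most of the enzymes. It was at 134, 106 and 69.8 CPM in controls 1 to 3 and at 219.6, 127 and 118 CPM in Sept2C111A libraries 1 to 3. Control 3 was lowest here too, but Sept2C111A library 3, which held most Fasn, was below control 1 for Srebf1. The log2 fold change was 0.58 (SE 0.33, 95% interval -0.22 to 1.39, edgeR adjusted p = 0.414), and 0.25 without Sept2C111A library 1. Srebf1 overlaps Rai1 on the opposite strand, and the counts do not distinguish its isoforms.

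Thrsp, the lipogenic regulator (chromosome 7, 97412938 to 97417730), was the single member whose groups did not overlap. It was at 105, 146 and 12.1 CPM in controls 1 to 3 and at 499, 168 and 655 CPM in Sept2C111A libraries 1 to 3. Control 2 and Sept2C111A library 2 were close, a ratio of 1.15, so the separation was narrow. The means were 87.5 ± 68.6 and 441 ± 249 CPM, the largest log2 fold change of the 10 at 2.33 (SE 0.92, 95% interval 0.11 to 4.55), with an unadjusted edgeR p of 0.0422 and an adjusted p of 0.329. Among all tested genes 11.2% had every Sept2C111A library above every control, and 23.1% had separate groups in either direction.

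**Figure D1:**
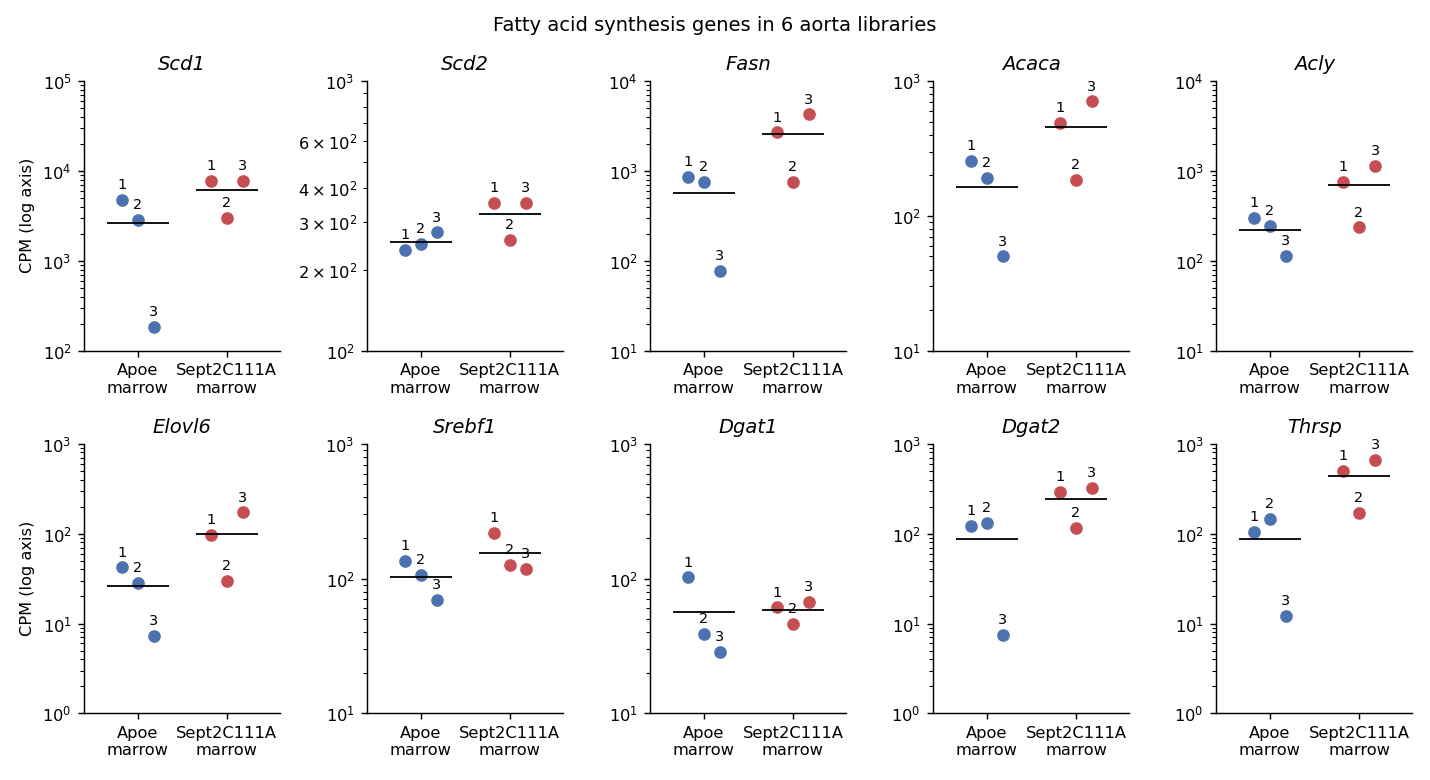
CPM (log axis) of each of the 10 genes in the 6 libraries. Points are libraries numbered as in the text, blue for Apoe-/- marrow and red for Apoe-/-Sept2C111A marrow, and lines are group means. In 9 of the 10 panels the groups overlap, Sept2C111A library 2 lies among controls 1 and 2 or next to them, and control 3 is the lowest library for all but Scd2.

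Across the 10 genes the log2 fold changes were all above 0, where 50.1% of all tested genes were above 0. Their median was 1.49, against 0.00 for all tested genes, and 7 of the 10 exceeded 1, against 3.25% of all tested genes. None of the 10 was called by edgeR, where 0% of genes were called higher, and none by DESeq2 with all libraries, which called 0.985% of genes higher. At an unadjusted edgeR p under 0.05 there were 3, Acly, Thrsp and Elovl6, where 6.17% of all genes were higher and 8.83% lower at that level. By DESeq2 there were 5 at an unadjusted p under 0.05, these 3 with Fasn and Acaca, where 6.1% of all genes were higher. All 10 were measured in the same 6 libraries and are not independent observations. DESeq2 called Thrsp without control 2 (adjusted p = 0.0166) or without control 3 (adjusted p = 0.0443), and Acly (adjusted p = 0.00264) and Elovl6 (adjusted p = 0.0340) without Sept2C111A library 2. In those 3 fits DESeq2 called 4.79%, 0.531% and 1.53% of genes higher. Without any other single library it called 0 members.

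**Figure D2:**
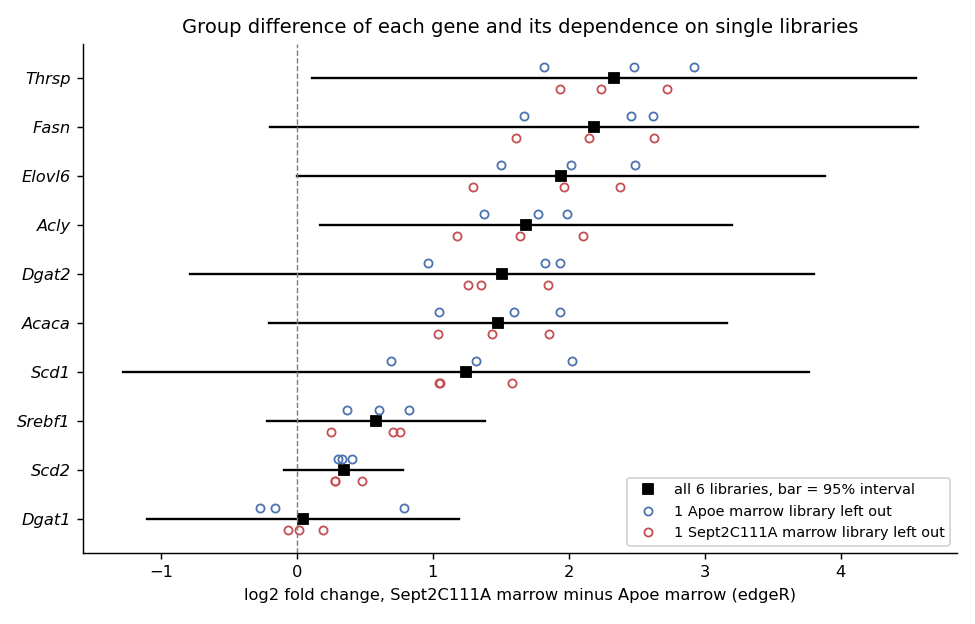
Log2 fold change of each gene, Sept2C111A marrow minus Apoe marrow, by edgeR. Squares are the fit on all 6 libraries with a 95% interval, and open circles are fits with 1 library left out (blue: a control, red: a Sept2C111A library). Intervals of Thrsp, Acly and, narrowly, Elovl6 lie above 0 before adjustment, and the circles of Dgat1 fall on both sides of 0.

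Over all 6 libraries, both groups together, the ratio of the highest to the lowest library was at least 4 for 7 of the 10 genes, against 13.4% of all tested genes, and its median was 17.6 for the 10 genes and 1.75 for all. Control 3 was the lowest library for 9 of the 10, and 28.6% of all tested genes were lowest there. Sept2C111A library 3 was the highest for 7, and 21.8% of all tested genes were highest there. Both Sept2C111A libraries 1 and 3 lay above every control for 8 of the 10 genes, the exceptions being Srebf1 and Dgat1. Sept2C111A library 2, by contrast, held between 0.891 and 1.20 times the level of control 2 for all 10. Neither pattern was counted over all tested genes, so neither is shown to be particular to these 10.

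Together the 10 genes made up 0.674%, 0.477% and 0.0812% of the counts in controls 1 to 3 and 1.35%, 0.474% and 1.64% in Sept2C111A libraries 1 to 3. The summed level of the 10 was 6953, 4752 and 823 CPM in the controls and 13250.2, 4910.5 and 15585 CPM in the Sept2C111A libraries. Scd1 was the largest part of this sum in every library but control 3, where Scd2 led.

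Fat markers varied across the libraries too. The 13 adipocyte markers, among them the hormone adiponectin (Adipoq), the droplet coat protein perilipin (Plin1) and adipsin (Cfd), summed to 2165, 2407 and 854 CPM in controls 1 to 3 and to 5259.8, 2171 and 2833 CPM in Sept2C111A libraries 1 to 3. None of them was at 0 in any library. All 13 had log2 fold changes above 0, with a median of 1.08, and 0 were called by edgeR or DESeq2. The 9 brown fat markers, including the uncoupling protein Ucp1, summed to 1057, 635 and 34.4 CPM in controls 1 to 3 and to 1068, 877 and 1839 CPM in Sept2C111A libraries 1 to 3, and 1 of them, Elovl3, was at 0 in control 3. Of these 9, 8 had log2 fold changes above 0, the median was 1.36, and 0 were called by edgeR or DESeq2. The exception was Dio2, at -0.02. Dio2 was at 533, 238 and 4.85 CPM in controls 1 to 3 and at 199, 460 and 108 CPM in Sept2C111A libraries 1 to 3. Control 3, the library lowest in Scd1 and Fasn, was also the lowest in the sums of both lists. In bulk tissue, fewer fat cells and less of these transcripts per fat cell cannot be told apart, and how far fat content bears on the group difference was not tested.

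**Figure D3:**
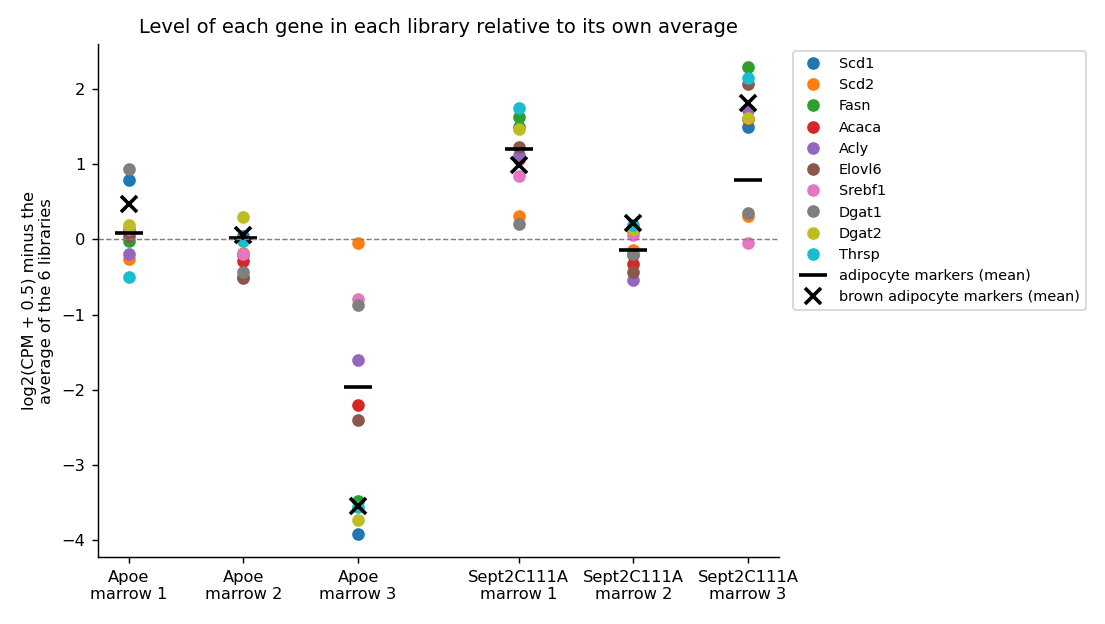
Level of each gene in each library as log2(CPM + 0.5) minus its average over the 6 libraries. Coloured points are the 10 genes, black dashes the mean of 13 adipocyte markers and black crosses the mean of 9 brown adipocyte markers, on the same scale. In control 3 the genes spread from -0.05 for Scd2 to -3.92 for Scd1, beside -1.96 for adipocyte and -3.55 for brown adipocyte markers.

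Levels were next set against the adipocyte markers of the same library, as log2(CPM + 0.5) of the gene minus the mean of the 13 markers. On this relative scale 7 genes were higher and 3 lower in Sept2C111A recipients, the median difference was 0.50, and the groups overlapped for 8 of the 10. The 3 lower genes were Scd2, Srebf1 and Dgat1, with differences of -0.91, -0.67 and -0.997. Thrsp was at 0.64, 1.20 and -0.37 in controls 1 to 3 and at 1.77, 1.56 and 2.58 in Sept2C111A libraries 1 to 3, a difference of 1.48. Fasn was at 3.68, 3.56 and 2.26 in the controls and at 4.20, 3.71 and 5.28 in the Sept2C111A libraries, a difference of 1.23. These were the 2 genes whose groups did not overlap, each with an exact two-sided permutation p of 0.1, the smallest the design allows, and 0.5 after adjustment over 10 genes. The share of all tested genes with separate groups on this scale was not counted. On plain CPM it was 23.1% in either direction.

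Scd1 on the relative scale was at 6.16, 5.49 and 3.49 in controls 1 to 3 and at 5.74, 5.70 and 6.15 in the Sept2C111A libraries. The Sept2C111A libraries lay within the range of controls 1 and 2 there, and control 3 alone was low. Acaca and Acly differed by 0.33 and 0.29 between the groups, with exact permutation p of 0.5 and 0.6. Scd2 was highest in control 3 on this scale, at 4.08, against 1.27 to 2.17 in the other 5 libraries.

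**Figure D4:**
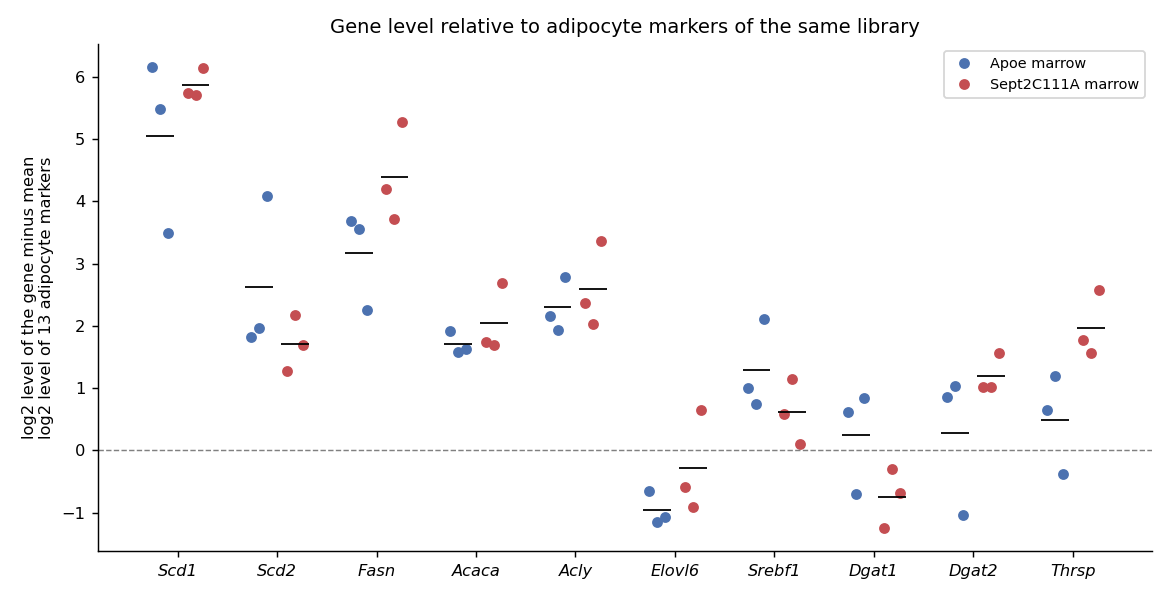
Log2 level of each gene minus the mean log2 level of 13 adipocyte markers in the same library. Points are libraries 1 to 3 from left to right, blue for Apoe marrow and red for Sept2C111A marrow, and lines are group means. The groups are separate for Fasn and Thrsp, and Scd2, Srebf1 and Dgat1 have the lower mean in Sept2C111A recipients.

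Per kilobase of transcript, the order of the members by their geometric mean over the 6 libraries was Scd1, Thrsp, Fasn, Acly, Scd2, Dgat2, Srebf1, Dgat1, Acaca and Elovl6. Scd1, at 541 ± 479 CPM per kilobase in controls and 1283 ± 575 in Sept2C111A recipients, was above Thrsp in 6 of 6 libraries. Thrsp, at 68.6 ± 53.7 and 345 ± 195, was above Fasn in 5 of 6, and Acaca was above Elovl6 in 6 of 6. For the 6 neighbouring pairs from Fasn to Acaca the mean log2 ratio within libraries was smaller than its SD, so their order is not resolved. Lengths are those of the GENCODE vM21 transcript with the longest coding sequence. With the length of all exons merged, Fasn came before Thrsp and the order was otherwise the same. The ratio of Fasn to Acaca on this scale was 3.21, 3.75 and 1.46 in controls 1 to 3 and 5.23, 3.84 and 5.71 in Sept2C111A libraries 1 to 3. The groups were separate, at an exact permutation p of 0.1, or 0.2 after adjustment over the 3 ratios.

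**Figure D5:**
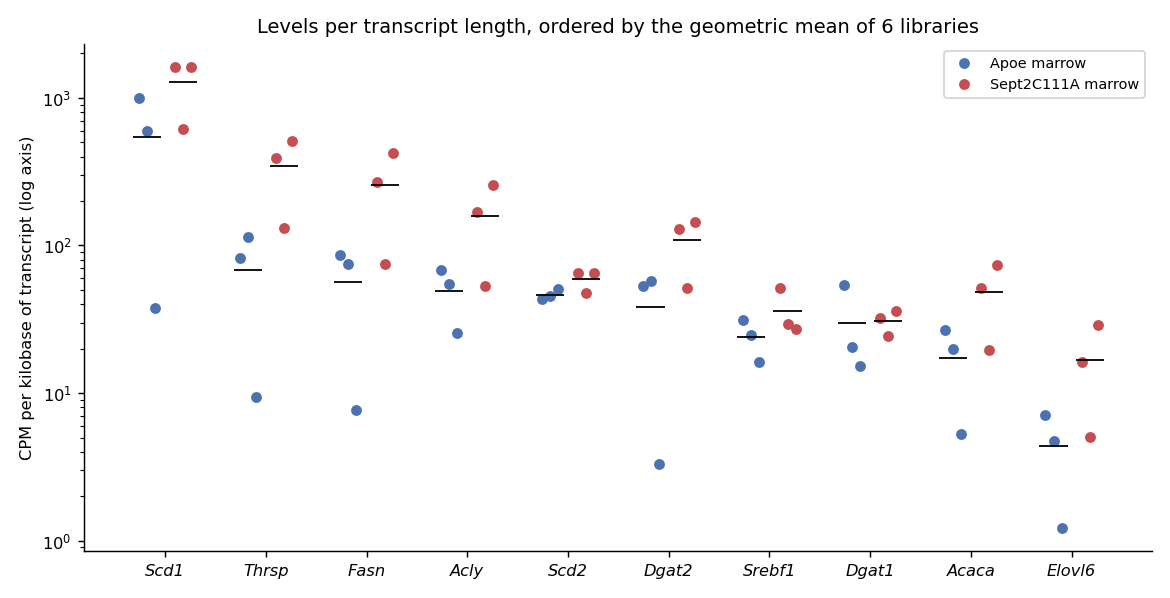
CPM per kilobase of transcript (log axis) for the 10 genes in order of their geometric mean. Points are libraries 1 to 3 from left to right, blue for Apoe marrow and red for Sept2C111A marrow, and lines are group means. Scd1 leads in all libraries but control 3, where Scd2, at 50.3, stands above Scd1, at 37.9.

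The genes most like 3 of the members were found by the root-mean-square difference of centred log2 levels over the 6 libraries, among 12752 genes with a mean count of at least 50. For Scd1 these were Dgat2 at 0.28, Pnpla3, a lipid droplet protein of fat and liver, at 0.31, the glycogen synthase Gys2 at 0.38, the plasma protein Orm1 at 0.40 and Cox7a1, a respiratory subunit of brown fat and muscle, at 0.45. The median over all candidates was 1.85. For Fasn the nearest was Gpd1, which makes the glycerol backbone of triglycerides, at 0.13, followed by Thrsp at 0.28, Otop1, a brown fat proton channel, at 0.28, Gys2 at 0.29 and Clstn3 at 0.38, against a median of 1.84. For Scd2 the 5 nearest were Gm46430, Zfp874a, Decr2, Dapk1 and Sod1, all at 0.05 or 0.06, against a median of 0.34, and the nearest other member, Srebf1, ranked 8794 among the candidates at 0.45.

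Of 27 other genes of fatty acid synthesis and activation, 22 had a log2 fold change above 0, with a median of 0.33, and 0 were called by edgeR. DESeq2 called 1, Acss2, which makes acetyl-CoA from acetate, at 27.1 ± 13.7 CPM in controls and 95.9 ± 56.4 CPM in Sept2C111A recipients (log2 fold change 1.82, SE 0.59, DESeq2 adjusted p = 0.0467). Slc25a1, the carrier that exports citrate from mitochondria for Acly, was at 60.2 ± 18.6 and 144.5 ± 66.3 CPM. Tecr, the reductase that closes the elongation cycle, was at 74.3 ± 13.0 and 111 ± 12.0 CPM. Each of these 3, named for the smallest p of the list, had separate groups, with an edgeR adjusted p of 0.316. Of the 27, 4 had separate groups higher and 1 lower in Sept2C111A recipients, against 11.2% and 11.9% of all tested genes.

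NADPH, the reducing power for Fasn, is supplied among others by malic enzyme Me1 and the pentose phosphate pathway. Of 7 such genes 5 were above 0, with a median of 0.06, and 0 were called. Me1 was at 125 ± 46.8 CPM in controls and 270.2 ± 110 CPM in Sept2C111A recipients, and the transketolase Tkt at 196 ± 35.2 and 429 ± 206 CPM, both with separate groups (log2 fold changes 1.11 and 1.13, edgeR adjusted p = 0.318 and 0.316). Me1 and Tkt were the only 2 of the 7 with separate groups, against 23.1% of all tested genes. The mitochondrial malic enzyme Me2 had a log2 fold change of -0.29. The other pentose phosphate genes of the list did not share the rise of Tkt. G6pdx, Pgd and Taldo1 had log2 fold changes of 0.06, -0.43 and 0.24, with SEs of 0.17, 0.34 and 0.30.

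Among 20 lipogenic regulators 17 were above 0, with a median of 0.21, and 0 were called by edgeR or DESeq2. The 3 of smallest p were Ppargc1b, a coactivator, with a log2 fold change of 1.23 (SE 0.47), Cebpa, an adipocyte transcription factor, with 0.60 (SE 0.24), and Insig2, which holds the Srebf proteins back in the endoplasmic reticulum, with 0.36 (SE 0.15). Srebf2, the relative of Srebf1 that drives cholesterol synthesis, had 0.01 (SE 0.28).

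Of 16 tested glycerolipid synthesis genes 10 were above 0, with a median of 0.31, and 0 were called by edgeR. DESeq2 called 1 lower, Lpin2, a phosphatidate phosphatase, at 37.5 ± 9.0 CPM in controls and 21.2 ± 0.94 CPM in Sept2C111A recipients (log2 fold change -0.82, SE 0.19, DESeq2 adjusted p = 0.0206). For Aqp7, the glycerol channel of fat cells, the log2 fold change was 1.37 (SE 0.47), and for the acyltransferase Agpat3 it was 0.55 (SE 0.19).

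Cholesterol synthesis genes, controlled mainly by Srebf2, had a median log2 fold change of 0.12, with 11 of 20 above 0, none at 2-fold and 0 called. Nsdhl and Pmvk, later and earlier enzymes of the pathway, stood at log2 fold changes of 0.59 and 0.76, with SEs of 0.22 and 0.30. Fatty acid oxidation genes had a median of 0.82, with 18 of 19 above 0 and 0 called. Ppara, the receptor that drives oxidation, was at 7.13 ± 5.61 and 30.3 ± 20.9 CPM with separate groups, the log2 fold change of Hadh, an enzyme of the oxidation spiral, was 1.05 (SE 0.42), and that of Ehhadh, its peroxisomal counterpart, was 0.88 (SE 0.39). Lipolysis and lipid uptake genes had a median of 0.58, with 12 of 14 above 0 and 0 called. Vldlr, a lipoprotein receptor, was at 40.3 ± 15.8 and 83.7 ± 24.0 CPM, and Mgll, monoglyceride lipase, at 143 ± 37.0 and 240.0 ± 40.4 CPM, both with separate groups. Lpl, lipoprotein lipase, had overlapping ones. Separate groups, higher in Sept2C111A recipients, were held by 1 of the 19 oxidation genes and 2 of the 14 lipolysis and uptake genes. The share of all tested genes was 11.2%.

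Other cell types varied between the libraries too. Summed macrophage markers, 12 genes, ran from 2364 to 4177 CPM in controls and from 2053 to 3080.1 CPM in Sept2C111A recipients. Summed Schwann cell markers, 10 genes of a lipid-making cell, ran from 242 to 303 and from 302 to 384 CPM. Pmp22 alone took 146 to 303 CPM of the Schwann cell sum, and 7 of the 10 had log2 fold changes below 0, with a median of -0.19. Sums of endothelial markers, 9 genes, ran from 762 to 1378 and from 694 to 1441 CPM. Those of fibroblast markers, 10 genes, ran from 8838 to 26963.5 and from 14030 to 15501 CPM, and those of erythroid markers, 7 genes, from 70.6 to 1684 and from 202 to 708 CPM. The groups overlapped in each of these sums. For 7 of the 10 fibroblast markers, however, every Sept2C111A library lay above every control, against 11.2% of all tested genes. Col1a1, the 1 fibroblast marker with a log2 fold change below 0 (-1.36), made up 22034 CPM of the sum in control 3. Summed neutrophil markers, 11 genes, were lower in every Sept2C111A library, at 22.4 to 37.3 CPM against 93.5 to 2992 CPM in controls. Ngp, Ltf, Camp and Ly6g were at 0 in Sept2C111A library 1. Ly6g was also at 0 in control 2, and Ngp and Camp were at most 0.558 and 0.198 CPM in any library. Ngp, Camp and Ly6g did not pass the filter on low counts. Of 8 neutrophil markers tested, DESeq2 called 6 lower and edgeR 0, and 7 had separate groups, against 11.9% of all tested genes lower. The 8th, Lcn2, was at 73.8, 4.05 and 5.69 CPM in controls 1 to 3. In Sept2C111A libraries 1 to 3 Lcn2 was at 8.46, 5.75 and 12.2 CPM. Of the 10 fibroblast markers, 9 of them above 0, DESeq2 called 4 higher and edgeR 0. Among all 14466 genes tested by edgeR, DESeq2 called 405 lower and 142 higher. The part of these cells in the levels of the 10 genes was not tested.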

How the data were processed

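Aortic RNA of 6 samples was enriched on oligo(dT) beads, per the labels' protocols, which favours transcripts with a poly(A) tail. Each library has a file of its own, in which the authors deposited expected counts (unnormalised estimates). Tools listed by the submitters' processing notes, with no role, are RSEM 1.3.1, DESeq2 1.4.5 and Bowtie2, on mm10. Which annotation, filters and strand setting were used is not stated there. The heading inside 1 Sept2C111A file bears a different number from its sample, and GEO's record was followed. A total of 25 gene names were stored as dates, none of them a member.

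Between 34.6% and 35.9% of the values in a library were fractional. Of the members, 6 had whole-number counts in all libraries, and 4 (Scd1, Scd2, Elovl6 and Srebf1) had divided reads. Expected counts were rounded and fitted in R 4.3.3 with edgeR 4.0.16 (filterByExpr with a minimum count of 10, which kept 14466 genes, TMM, and the quasi-likelihood test of the marrow group, two-sided). P-values were adjusted over all tested genes by Benjamini-Hochberg, and 0.05 was the threshold. DESeq2 1.42.0 and limma 3.58.1 served as alternatives. The fits were tested on simulated data. Replicates of the same group differed far beyond sampling noise (chi-square per degree of freedom from 52.6 to 249), so none was a repeat sequencing of another. Whether they came from different mice cannot be told from this. Fit output was rounded to fixed digits. Coordinates and lengths are from GENCODE vM21 on mm10, and promoters from RefSeq, which listed 6 of the 10 members.

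The members, the 17 gene lists and the tests were chosen with earlier results of these data known. Named are all members, the 3 genes of smallest edgeR p of each list (marker lists by their sum) and, for Scd1, Fasn and Scd2, the 5 genes most like them. One gene that this rule selects is not reported here. Scd3, Scd4, Srebf2, Adipoq, Plin1, Cfd, Ucp1, Elovl3, G6pdx, Pgd, Taldo1, Dio2, Col1a1, Pmp22, Lcn2 and the neutrophil genes at 0 fall outside this rule. They were chosen, after values were seen, for their function, their 0, or their departure from or weight in their list.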

Additional observations from a re-analysis of the deposited data

How the results depend on the processing

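With all 6 libraries, edgeR under RLE or upper-quartile scaling, without a count filter or with a mean count of at least 50, DESeq2 and limma-voom with quality weights each called 0 of the 10 members, with a median log2 fold change from 1.49 to 1.80 (the highest by limma-voom). Leaving out 1 library gave a median from 1.00 to 1.96 and 0 to 2 members called, the calls coming from DESeq2 fits added after seeing the data. The number of all genes called was 0 by edgeR under every setting tried and 570 by DESeq2. Without controls 1, 2 and 3 in turn DESeq2 called 330, 1767 and 345 genes, and without Sept2C111A libraries 1, 2 and 3 it called 241, 640 and 116. With controls 1 and 3 both left out, edgeR called 0 members at a median of 1.19, with 1 control library assumed to vary like the others. The log2 fold change of Dgat1 was the single member value to change sign: it was -0.16, -0.27 and -0.06 by edgeR, and -0.16, -0.28 and -0.067 by DESeq2, without control 2, control 3 and Sept2C111A library 3, and reached 0.79 without control 1. The cause was not tested. The median level relative to adipocyte markers differed by 0.50, by 0.87 relative to Adipoq alone, and by 0.11 to 0.73 with 1 library left out, the lowest being without Sept2C111A library 3.

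The replicate numbers share nothing stated in the labels, and same-numbered libraries did not deviate together (correlations of 0.02, 0.13 and -0.17). With the replicate block edgeR called 0 members at a median of 1.61, and DESeq2 called 0 members and 458 genes in all. No group had enough libraries for a test of single outlying libraries. With 3 libraries per group, the 95% intervals of Fasn and Scd1 included 0, while those of Acly, Elovl6 and Thrsp did not before adjustment. Depth is no limit for these genes, whose lowest count was 147.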
